A study of Danio rerio with 5 samples.

Results

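Transcripts of 10 glycolytic enzymes were compared in RNA from zebrafish (Danio rerio) larvae with and without a deletion of zbtb24, the orthologue of a gene mutated in a human immunodeficiency, the ICF syndrome. The genes were taken by their symbols, namely gapdh, gapdhs, aldoaa, aldoab, pgk1, eno1a, eno3, pgam2, ldha and tpi1b. All 10 were found among the 21854 genes listed, and all 10 passed the minimum level for testing. For the comparison of forms, aldoab, eno3 and pgam2 were taken as the 3 muscle forms and the other 7 genes as general forms. Libraries labelled Mutant (3) came from larvae homozygous for zbtb24mk22, a TALEN-made deletion carried by animals born to heterozygous parents. Libraries labelled WT (2 analysed here) came from wild-type larvae, and wild-type lines of the study were of the AB background. Larvae of both genotypes were 2 weeks old, and each library pooled the RNA of 10 larvae, so that differences between individual fish were not measured. Because the columns labelled WT carry numbers that match no sample title, these libraries are named WT column 2 and WT column 3.

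Glycolysis splits glucose into pyruvate in the cytosol and yields ATP and NADH. Aldolase cleaves the sugar bisphosphate, triose phosphate isomerase interconverts the products, GAPDH makes NADH, phosphoglycerate kinase and pyruvate kinase make ATP, and lactate dehydrogenase reduces pyruvate to lactate and so restores NAD+. Vertebrates encode most of these steps by several genes whose products differ in tissue use. In mammals ENO3 (beta-enolase) and PGAM2 are the forms of striated muscle and ENO2 is the form of neurons. Fast skeletal muscle, which makes up much of a fish larva, relies heavily on the pathway.

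The values are scaled counts, that is, reads per gene after correction for library size. Between 23796792 and 28601962 reads per library were assigned to genes. Counting error was not computed apart from the spread between libraries. Levels are compared between libraries and not between genes, because transcript lengths were not used. The labels name fin as the source while the description of the series gives whole larvae. Markers of liver, exocrine pancreas and photoreceptors were present in every library (fabp10a from 12218 to 21542 scaled counts, rho from 13647 to 23339). The deleted gene went against the labels, with 155, 175 and 282 scaled counts of zbtb24 in the libraries labelled Mutant against 127 and 77.3 in those labelled WT (log2 fold change 0.98, limma adjusted p = 0.0642). These counts are for the whole gene, and reads from exons outside the deletion were not told apart. By qRT-PCR, the paper reported no detectable zbtb24 transcripts in homozygotes. The interferon response genes stat1b (log2 fold change 1.22, limma adjusted p = 0.0205) and irf7 (0.84, adjusted p = 0.0215) were higher in the libraries labelled Mutant and are named here after their values had been seen. Directions are those of the libraries as labelled. Since the tissue was whole larvae, more or fewer cells of a type and more or less RNA per cell cannot be told apart.

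None of the 10 genes passed an adjusted p of 0.05 in the limma fit across 20307 genes. Over all genes tested, 3.32% were called higher and 2.68% called lower with the Mutant label. At an unadjusted p under 0.05, 5 of the 10 genes were higher and 0 lower, where the shares over all genes were 13.1% higher and 13.6% lower. The fold change was positive for 9 of 10 genes, against 49.8% of all genes, and for 8 when columns were rescaled to equal totals or quantile normalized, where aldoaa turned negative. The median log2 fold change of the 10 genes was 0.26, and that of all genes tested was -0.0014. The median of the 10 genes was 0.17 with equal totals, where that of all genes was -0.085, and 0.14 with quantile normalization, where that of all genes was -0.0014. In 6 of the 10 genes the lowest Mutant value exceeded the highest WT value, and in 0 genes was the order the opposite. Over all genes tested these shares were 22.3% and 22.7%. The genes were chosen with earlier results of these data known, so these counts describe the 10 genes and test nothing. An exact permutation test of 3 libraries against 2 cannot give a p below 0.1 and was not used.

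**Figure D1:**
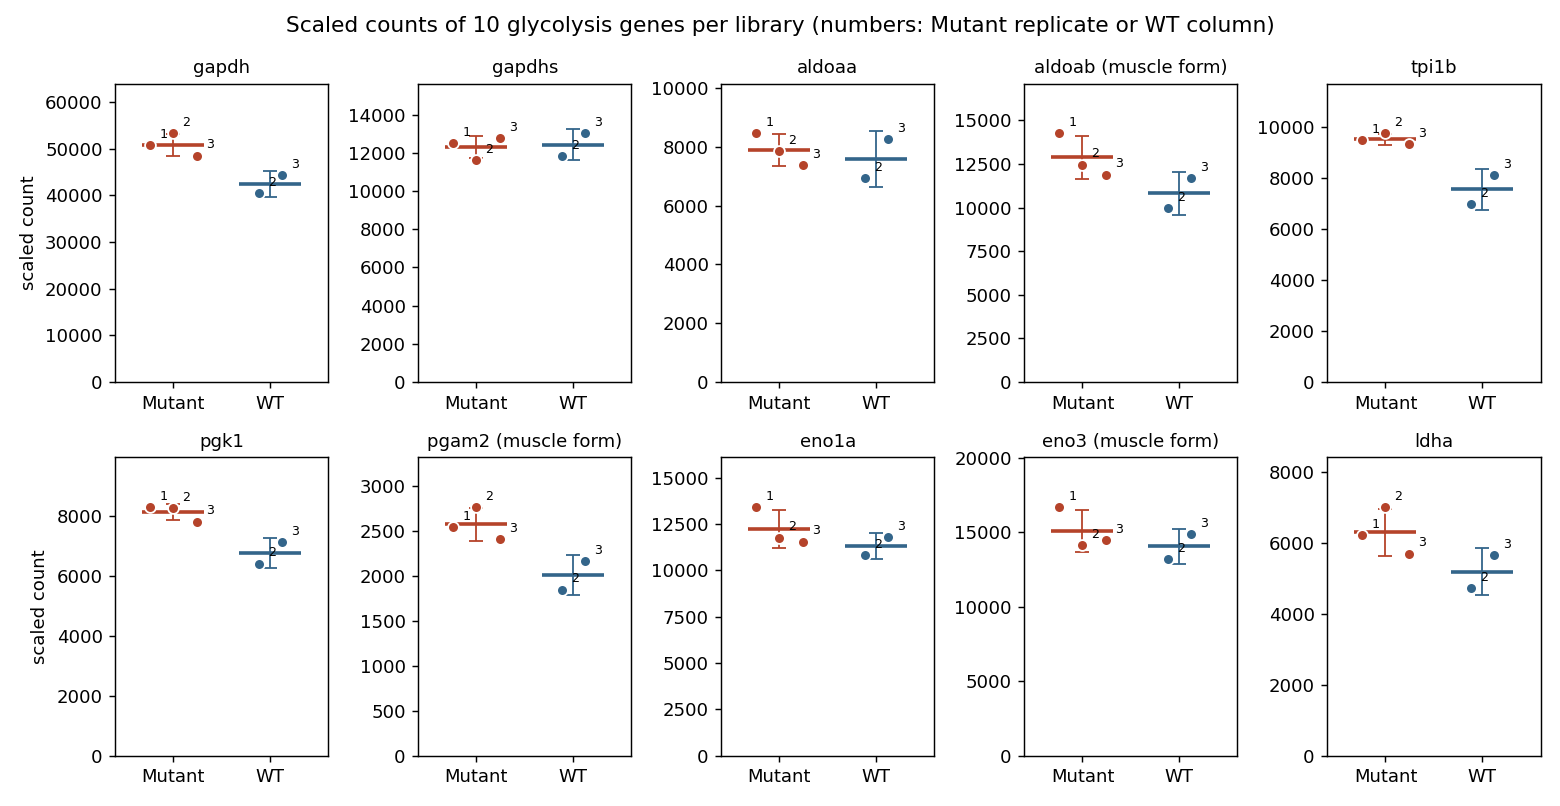
Scaled counts of the 10 genes in each library, with the libraries labelled Mutant (red) left of those labelled WT (blue). Points are libraries numbered by Mutant replicate or WT column, thick lines are group means and error bars are SD (n = 3 and n = 2). Column 2 lies below column 3 in all 10 panels, and in 6 panels all red points lie above all blue points.

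Triose phosphate isomerase and phosphoglycerate mutase had the largest fold changes of the 10 genes, and neither passed the test. Scaled counts of tpi1b (ENSDARG00000040988), a triose phosphate isomerase, were 9499, 9763 and 9337 in the libraries labelled Mutant and 6985 and 8132 in those labelled WT. It averaged 9533 ± 215 (SD, n = 3) under the Mutant label and 7559 ± 811 (SD, n = 2) under the WT label. The 3 libraries labelled Mutant lay close together and the groups did not overlap. The log2 fold change of tpi1b was 0.34 (SE 0.10, 95% interval 0.12 to 0.56), which missed the threshold in limma (adjusted p = 0.0702). The mutase pgam2 (ENSDARG00000057571), the muscle form of the enzyme that moves the phosphate of phosphoglycerate, had 2541, 2762 and 2405 scaled counts in the libraries labelled Mutant against 1846 and 2163 in those labelled WT. The groups did not overlap here either. Its log2 fold change was 0.36 (SE 0.11, 95% interval 0.12 to 0.60, limma adjusted p = 0.0749).

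The fold changes of both genes depended on which library labelled WT was kept. Without WT column 3, the log2 fold change was 0.45 for tpi1b and 0.47 for pgam2. Without WT column 2, they were at 0.23 and 0.25. In these fits the remaining library labelled WT is assumed to vary like those labelled Mutant.

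Among the 10 genes, those of the NADH-forming step and of phosphoglycerate kinase did not pass the test. For gapdh (ENSDARG00000043457), which encodes glyceraldehyde-3-phosphate dehydrogenase, the libraries labelled Mutant had scaled counts of 50729, 53292 and 48509, against 40445 and 44333 in those labelled WT. All 3 libraries labelled Mutant were above both labelled WT, and the mean was 19.9% higher. The log2 fold change was 0.26 (SE 0.11, 95% interval 0.03 to 0.50, limma adjusted p = 0.15), and it was 0.11 with quantile normalization. The kinase gene pgk1 (ENSDARG00000054191) had 8308, 8262 and 7823 scaled counts in the libraries labelled Mutant against 6415 and 7139 in those labelled WT. Its groups did not overlap, and its log2 fold change was also 0.26 (SE 0.09, 95% interval 0.05 to 0.47, adjusted p = 0.115).

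The lactate dehydrogenase gene ldha (ENSDARG00000101251), whose product turns pyruvate into lactate, had 6207, 7005 and 5692 scaled counts in the libraries labelled Mutant against 4713 and 5651 in those labelled WT. Mutant replicate 3 was only just above WT column 3, so that the groups were separated by a narrow margin. The log2 fold change of ldha was 0.28 (SE 0.12, 95% interval 0.02 to 0.55, limma adjusted p = 0.163). It was 0.15 without WT column 2 and 0.41 without WT column 3.

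The second GAPDH gene did not pass the test. Scaled counts of gapdhs (ENSDARG00000039914) were 12511, 11626 and 12749 in the libraries labelled Mutant and 11840 and 13014 in those labelled WT. The means were 12295 ± 591 (SD, n = 3) for Mutant and 12427 ± 830 (SD, n = 2) for WT. Both WT values enclosed 2 of the 3 Mutant values, and Mutant replicate 2 was the lowest of all. The log2 fold change was -0.015 (SE 0.10, limma adjusted p = 0.938), with a 95% interval of -0.23 to 0.20, and its sign turned positive without Mutant replicate 2 or without WT column 3 (at most 0.053). The interval of gapdh overlapped that of gapdhs, which does not test whether their fold changes differed.

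Aldolase A is encoded by a pair of genes in zebrafish. Scaled counts of aldoab (ENSDARG00000034470) were 14259, 12472 and 11896 in the libraries labelled Mutant and 9954 and 11690 in those labelled WT. Replicate 1 was the highest, and replicate 3 lay just above WT column 3. The log2 fold change of aldoab was 0.25 (SE 0.11, 95% interval -0.0039 to 0.51, limma adjusted p = 0.193), with 0.14 without WT column 2 and 0.17 with equal totals. Its paralogue aldoaa (ENSDARG00000011665) had 8463, 7861 and 7381 scaled counts in the libraries labelled Mutant against 6927 and 8263 in those labelled WT. The groups overlapped, and the log2 fold change was 0.06 (SE 0.11, 95% interval -0.18 to 0.30, adjusted p = 0.756). The sign of aldoaa turned negative when columns were rescaled to equal totals (-0.024), with quantile normalization (-0.028) and without WT column 2 (-0.067).

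Neither enolase gene of the set passed the test. The muscle form eno3 (ENSDARG00000039007) had 16685, 14126 and 14464 scaled counts in the libraries labelled Mutant against 13199 and 14895 in those labelled WT. For eno1a (ENSDARG00000022456), which encodes an alpha-enolase, they were 13413, 11772 and 11546 against 10827 and 11806. Mutant replicate 1 was the highest library for both genes, and the other 2 Mutant replicates fell between the WT columns. The log2 fold changes were 0.10 (SE 0.11, 95% interval -0.14 to 0.35) for eno3 and 0.11 (SE 0.10, 95% interval -0.12 to 0.34) for eno1a. Their limma adjusted p-values were 0.581 and 0.52. Without WT column 2 the fold changes were 0.015 for eno3 and 0.049 for eno1a, and without WT column 3 they were 0.19 and 0.17.

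**Figure D2:**
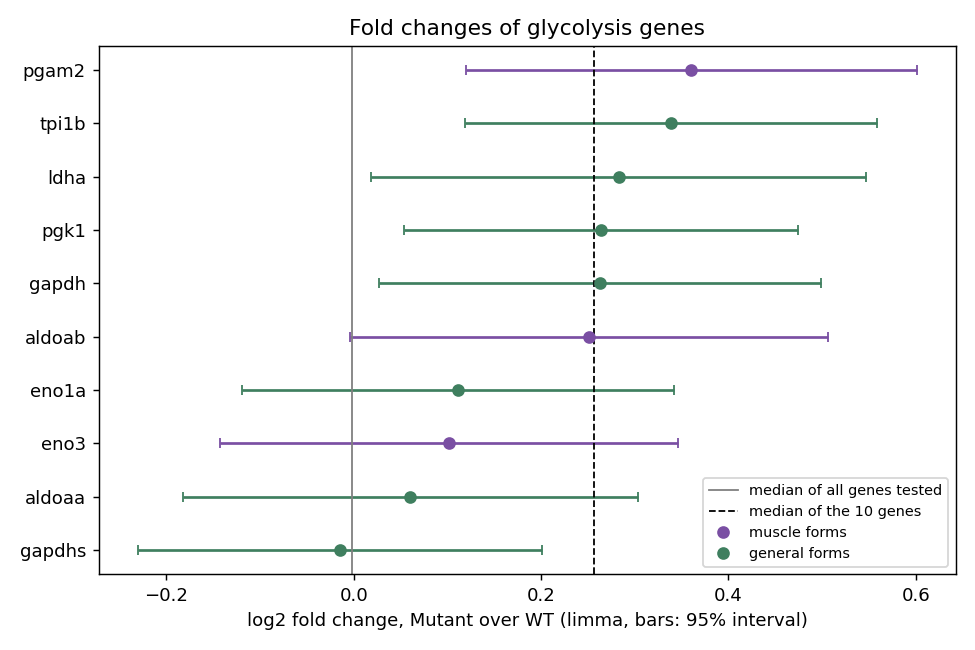
Log2 fold change of each gene between libraries labelled Mutant and WT on the log2(scaled count + 1) scale, with 95% intervals from limma, ordered by size. Muscle forms (purple) and general forms (green) are interspersed, from 0.36 for pgam2 to -0.015 for gapdhs, around a median of 0.26 (dashed line), with the median of all genes tested as the grey line.

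The spread between the libraries labelled WT was of the same order as the difference between the groups. WT column 3 was above WT column 2 in all 10 genes, by a factor of 1.09 (eno1a) to 1.2 (ldha) with a median of 1.15. Over all genes tested, 48.6% were higher in WT column 3. The mean of the libraries labelled Mutant exceeded that of the libraries labelled WT by a median factor of 1.19 over the 10 genes. Against WT column 3 alone this factor was 1.11, and against WT column 2 alone it was 1.26. In 6 of the 10 genes the log2 fold change between the groups was larger than that between the WT columns, and WT column 2 was the lowest of all libraries in 9 genes, the exception being gapdhs. Within the libraries labelled Mutant, replicate 1 was the highest for 5 genes and replicate 2 for 4, and replicate 3 was the lowest for 8.

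Together the 10 genes took 0.540%, 0.527% and 0.499% of all scaled counts in the libraries labelled Mutant, and 0.460% and 0.504% in those labelled WT. These shares overlapped because WT column 3 lay above Mutant replicate 3.

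The muscle forms were then compared with the general forms by fold change and by a ratio within each library. Scaling between libraries could not affect the ratio but could affect the fold changes. The median log2 fold change was 0.25 for the 3 muscle forms (0.10 to 0.36) and 0.26 for the 7 general forms (-0.015 to 0.34). Summed over the muscle forms and divided by the sum over the general forms, the ratio was 0.307, 0.268 and 0.279 in the libraries labelled Mutant and 0.284 and 0.292 in those labelled WT. The means of 0.285 ± 0.020 (SD, n = 3) and 0.288 ± 0.0062 (SD, n = 2) differed by less than the spread between libraries. Mutant replicate 1 had the highest ratio and Mutant replicate 2 the lowest, with both WT columns between them. The difference of the mean log2 ratio was -0.019 and changed sign with how the classes were drawn, since it was 0.082 with gapdh counted as a muscle form and -0.071 with aldoab counted as a general form. In Mutant replicate 2, gapdh alone gave 53292 of the 109581 scaled counts of the general forms. No ratio was formed with ldha or tpi1b counted as a muscle form, and use of the general forms in muscle was not examined.

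Ratios of paralogues were also formed within each library. The ratio of eno3 to eno1a was 1.24, 1.2 and 1.25 in the libraries labelled Mutant and 1.22 and 1.26 in those labelled WT, so that the groups overlapped. The ratio of aldoab to aldoaa was 1.68, 1.59 and 1.61 in the libraries labelled Mutant against 1.44 and 1.41 in those labelled WT. Similarly, the ratio of gapdh to gapdhs was 4.05, 4.58 and 3.81 against 3.42 and 3.41. In both pairs the groups did not overlap, and the WT columns were closer to each other than in the levels of either gene. These ratios use the members themselves and were not tested.

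The same was computed for paralogues outside the set, which were chosen after their values had been seen. The ratio of pgam2 to the sum of pgam1a and pgam1b, the general mutases, was 0.787, 0.836 and 0.715 in the libraries labelled Mutant and 0.588 and 0.637 in those labelled WT. That of tpi1b to tpi1a was 31.5, 30.04 and 29.7 in the libraries labelled Mutant against 16.4 and 19.5 in those labelled WT. Both differences left a gap between the groups. The scaled counts of tpi1a, the second triose phosphate isomerase gene, were 302, 325 and 314 in the libraries labelled Mutant against 426 and 416 in those labelled WT (log2 fold change -0.42, limma adjusted p = 0.0611). The ratio of ldha to ldhba overlapped, with 0.741, 0.857 and 0.676 in the libraries labelled Mutant and 0.601 and 0.688 in those labelled WT.

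**Figure D3:**
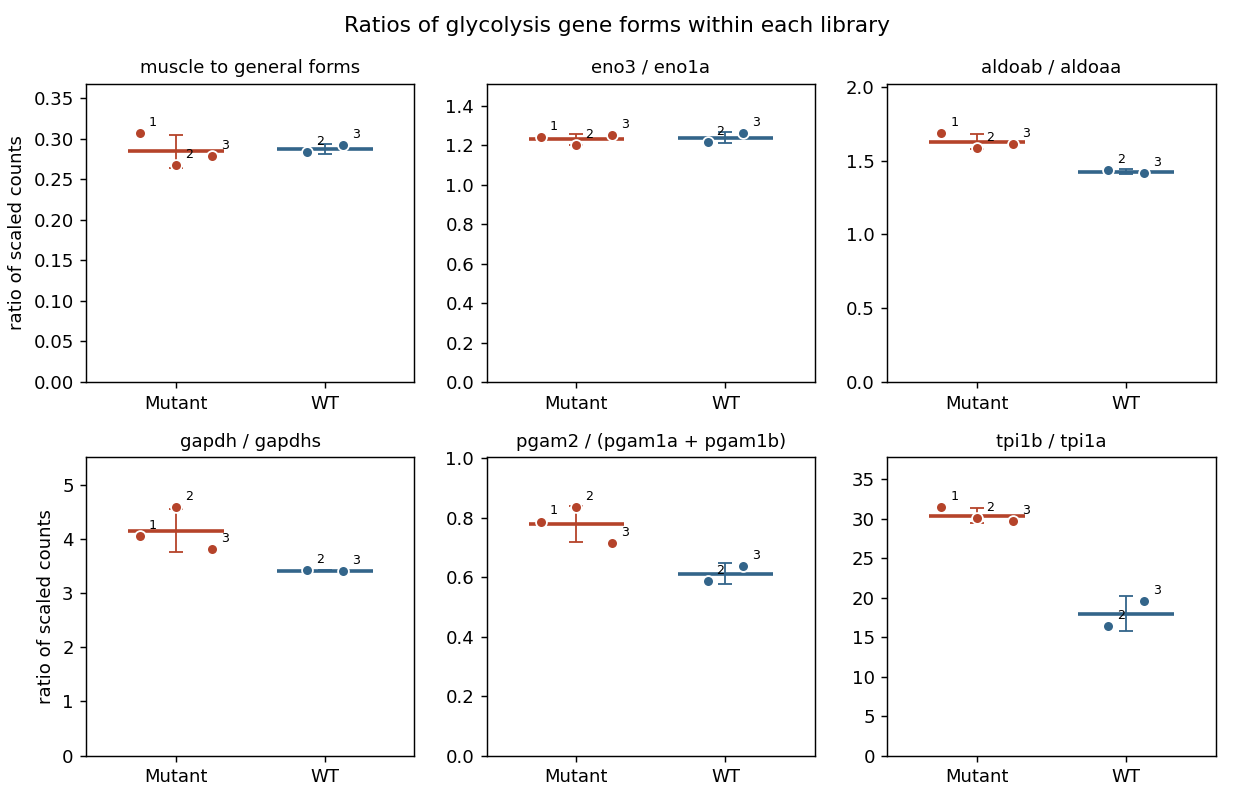
Ratios of scaled counts between gene forms within each library, with libraries labelled Mutant (red) left of those labelled WT (blue), lines at group means and error bars of SD (n = 3 and n = 2). The groups overlap for muscle to general forms and for eno3 to eno1a, and do not overlap in the other 4 panels.

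The other isozymes of the pathway were then examined. Of 28 other glycolysis genes tested, 0 passed the threshold in the direction of a rise and 1 fell (3.32% and 2.68% over all genes). Their median log2 fold change was -0.0014, with 14 positive and 14 negative values. The fall was that of eno1b, the paralogue of eno1a, with 596, 695 and 714 scaled counts in the libraries labelled Mutant against 904 and 961 in those labelled WT (log2 fold change -0.48, SE 0.12, limma adjusted p = 0.0421). Among the fits that left out a library labelled Mutant, this call was lost without replicate 1 and without replicate 2. Lower values without overlap were found in 10 of the 28 genes, and higher values without overlap in 4, where the shares over all genes tested were 22.7% and 22.3%. For eno2, the neuronal enolase in mammals, scaled counts were 1737, 1563 and 1653 against 2379 and 1976 (log2 fold change -0.39, adjusted p = 0.0625, named after its values had been seen). Other isozymes were higher, also named after their values had been seen. They were gpib (log2 fold change 0.45, limma adjusted p = 0.105), pfkma (0.41, adjusted p = 0.0944) and pkmb (0.38, adjusted p = 0.0848). Each had a larger fold change than any of the 10 genes, without overlap between the groups. For gpib the margin was narrow, with 1225 scaled counts in Mutant replicate 3 against 1223 in WT column 3. In the same libraries, pfkma had 1663 against 1600 and pkmb 6591 against 6263.

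**Figure D4:**
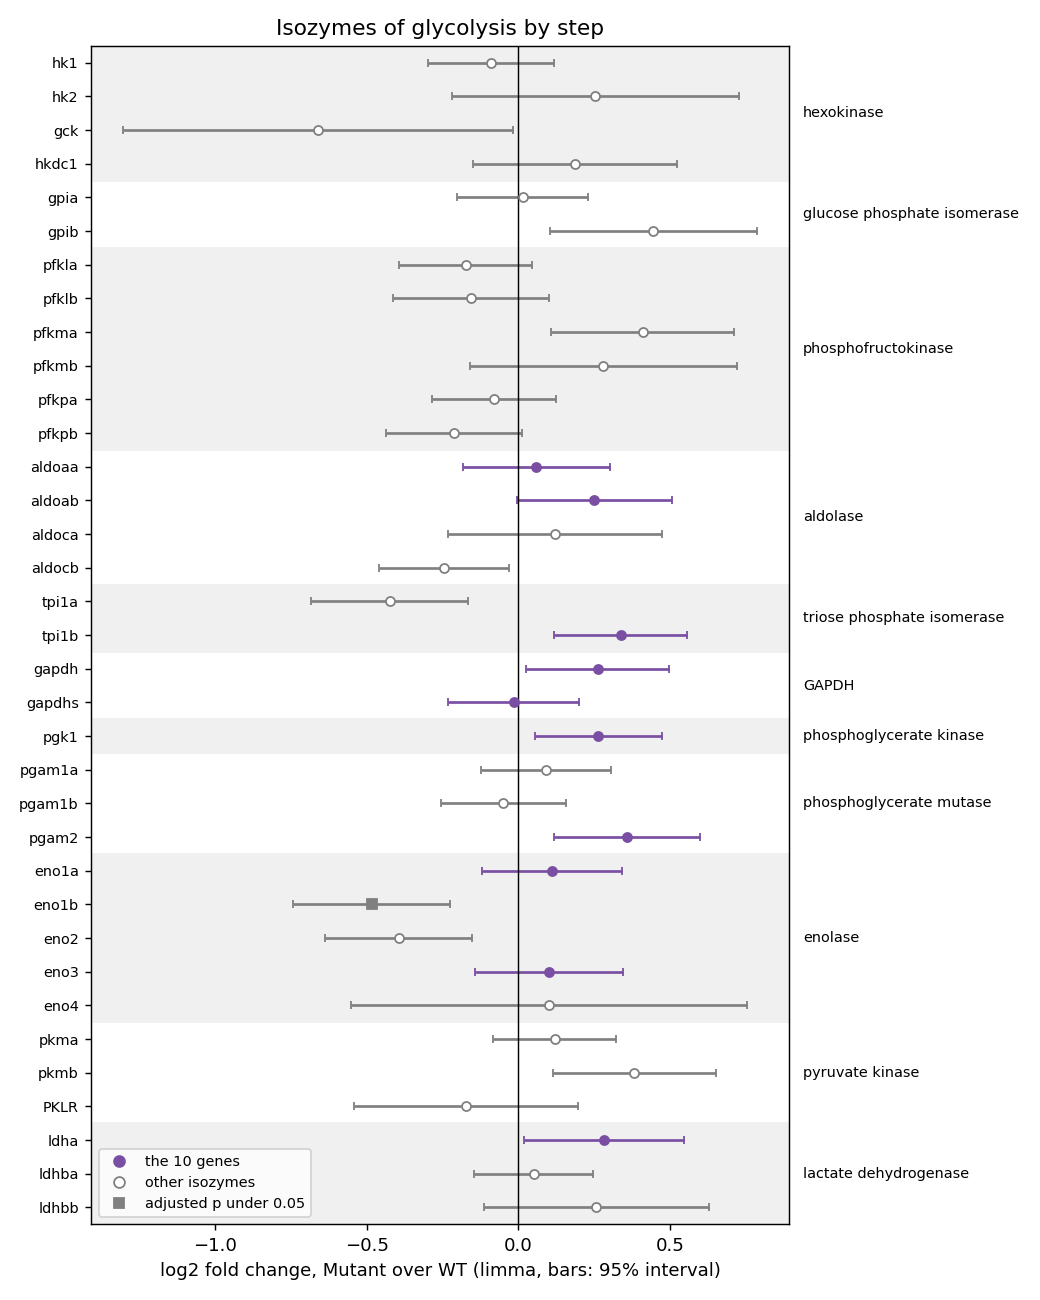
Log2 fold change between libraries labelled Mutant and WT with 95% limma intervals for isozymes of each step, not all of which are drawn, from hexokinase at the top to lactate dehydrogenase at the bottom. The 10 genes are purple, other isozymes are grey, and the square marks eno1b, which passed an adjusted p of 0.05. Of the set, tpi1b lies to the right of tpi1a, and eno1a and eno3 lie to the right of eno1b and eno2. The grey eno4 (0.10) lies level with eno3 (0.10), and aldoca (0.12) lies to the right of aldoaa (0.06). Farther right than all of the 10 genes lie the grey gpib (0.45), pfkma (0.41) and pkmb (0.38).

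Neighbouring pathways were examined with lists of genes. Over all genes tested, 3.32% were called higher and 2.68% lower, which is the background for the counts of each list. In gluconeogenesis, the reverse path, 1 of 12 genes rose and 1 fell. The rise was that of fbp2, the fructose bisphosphatase of muscle in mammals, with 423, 442 and 257 scaled counts in the libraries labelled Mutant against 193 and 212 in those labelled WT (log2 fold change 0.84, SE 0.22, limma adjusted p = 0.0499). The fall was that of the pyruvate carboxylase gene pcxb, with 1280, 1297 and 1324 against 1711 and 1853 (log2 fold change -0.45, SE 0.09, adjusted p = 0.0306). For pck1, which encodes the rate-limiting carboxykinase, the groups overlapped (14445, 9798 and 11176 against 13892 and 15165, log2 fold change -0.32, adjusted p = 0.204). Among 7 glucose and lactate transporters 0 rose and 1 fell, namely slc16a7, a monocarboxylate transporter, with 72.2, 103 and 107 scaled counts in the libraries labelled Mutant against 176 and 155 in those labelled WT (log2 fold change -0.82, SE 0.20, adjusted p = 0.0456). The glucose transporter gene slc2a3a was at -0.19 (adjusted p = 0.333).

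Among 22 genes that control glycolysis or the use of pyruvate, 1 rose and 0 fell (3.32% and 2.68% over all genes). This was pdk2b, a kinase that switches off pyruvate dehydrogenase, with 10611, 10724 and 8133 scaled counts in the libraries labelled Mutant against 7095 and 5478 in those labelled WT (log2 fold change 0.64, SE 0.15, limma adjusted p = 0.0377). Of 17 genes of glycogen metabolism 0 passed in either direction, 5 were higher at an unadjusted p under 0.05 and 0 lower (13.1% and 13.6% over all genes). The muscle glycogen phosphorylase gene pygma had 6190, 5701 and 4660 scaled counts against 3578 and 4670 (log2 fold change 0.42, adjusted p = 0.104). Among the fits that left out a library labelled Mutant, calls of fbp2, pcxb, slc16a7 and pdk2b were each lost without replicate 1 or replicate 2. That of fbp2 was also lost with equal totals, a pseudocount of 8 and voom, and those of slc16a7 and pdk2b with quantile normalization.

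Tissue markers differed between the groups beside these results. Fast muscle markers (24 of 24 symbols found, none at 0) took 10.9%, 10.3% and 9.67% of all scaled counts in the libraries labelled Mutant and 8.57% and 8.82% in those labelled WT. Of these markers, 7 were called higher and 0 lower (3.32% and 2.68% over all genes). All 24 fold changes were positive, with a median of 0.35 on the log2 scale. Per 100 scaled counts of fast muscle markers, the 10 genes summed to 4.96, 5.10 and 5.16 in the libraries labelled Mutant against 5.36 and 5.72 in those labelled WT. Relative to these markers, the 10 genes were thus lower in every library labelled Mutant, the opposite of the order of their levels. For the 3 muscle forms alone, the values were 1.17, 1.08 and 1.13 against 1.18 and 1.29. The part of these markers in the differences of the 10 genes was not tested.

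Markers of other tissues were counted in the same way, where 3.32% of all genes tested were called higher and 2.68% lower. Liver markers (10 of 10 found, 4 called higher, 0 lower) summed to between 195944 and 229200 scaled counts in the libraries labelled Mutant and between 114656 and 155512 in those labelled WT. Neuron markers (8 of 9 found, 0 called higher, 2 lower) summed to between 24894 and 26221 against between 28167 and 32314. Photoreceptor markers (9 of 10 found, 0 called higher, 1 lower) summed to between 60393 and 79388 against between 90126 and 93041. Epidermis markers (8 of 8, 3 called higher, 0 lower) summed to between 443073 and 446238 against between 281416 and 316930. Markers of slow muscle (7 of 8 found, 1 called higher, 0 lower) summed to between 46500 and 51348 against between 39169 and 41548. Heart markers (7 of 8 found, 1 called higher, 0 lower) summed to between 3502 and 3729 against between 2868 and 3048. Red cell markers (3 of 8 found, 2 called higher, 0 lower) summed to between 3867 and 4989 against between 1837 and 2411. No pancreas marker was called (0 of 8), and their sums overlapped, with between 479156 and 514474 against between 456453 and 557959. None of the markers found was at 0 in any library, and their part in the results above was not tested.

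Genes with the most similar course over the 5 libraries were sought among 4194 other genes with a mean of at least 1000 scaled counts. Likeness was the root mean square difference of log2 profiles, each centred on its own mean. Closest to the mean profile of the muscle forms were vcla (vinculin, 0.021), atp1a2a (a sodium pump subunit, 0.029), cox6b1 (a cytochrome oxidase subunit, 0.032), sulf1 (0.032) and shc1 (0.032). Closest to the general forms were si:ch211-220p4.1 (0.015), ddi2 (0.015), synpo2la (0.016), xbp1 (a transcription factor of the unfolded protein response, 0.024) and ppp2r1b (a phosphatase subunit, 0.024). Both profiles had WT column 2 as the lowest library, and none of these 10 neighbours passed the threshold.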

How the data were processed

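RNA of pooled larvae was sequenced after poly(A) selection with a stranded kit. The authors aligned reads to danRer7 with STAR, counted them per gene with HTSeq 0.5.3 on Ensembl genes and scaled them with DESeq. The deposited values are a signal, namely counts divided by a size factor plus 1. After subtracting 1, 100% of values were whole multiples of the value of 1 read (tolerance 0.01 reads). Strand use and the treatment of reads shared by paralogues are not given in the sources used here, so paralogue values are uncertain.

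Genes with a mean of at least 10 scaled counts (20307 of 21854) were tested across the whole table on log2(scaled count + 1) in limma 3.58.1 under R 4.3.3. The fit was two-sided, let the prior variance follow mean level, had no covariates and used 3 libraries labelled Mutant and 2 labelled WT. This scale understates changes of low genes. P-values were Benjamini-Hochberg adjusted and called under 0.05. No source says that the pools came from separate crosses, so p-values measure the spread between these libraries. The step was tested on simulated data with changes larger than those of the 10 genes, so that test does not cover changes of their size.

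The genes and lists were chosen with earlier results of these data known. Named are the 10 genes, called genes and the gene with the highest mean of each pathway list, and the 5 nearest profiles per form. Others are marked. Some results are not reported here. In total 13 alternatives were run, with pseudocounts of 0.5 and 8, no minimum, a minimum of 50, equal totals, quantile normalization, voom, robust empirical Bayes and each library left out.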

Additional observations from a re-analysis of the deposited data

How the results depend on the processing

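Under 8 changes of pseudocount, minimum, scaling or test, 0 of the 10 genes was called, and the lowest adjusted p of any of them in limma lay between 0.0661 and 0.117. With any 1 of the libraries labelled Mutant left out, 0 were called. In these fits 2.15%, 0.345% and 5.57% of all genes were called, without Mutant replicates 1, 2 and 3 in turn. Leaving out a WT column keeps 1 library labelled WT, so calls of any gene are not given for those fits. Fold changes on the log2 scale were larger without WT column 3, at 0.45 for tpi1b and 0.47 for pgam2. They were smaller without WT column 2, at 0.23 and 0.25. Of 80 comparisons of a fold change under these 8 settings 78 kept their sign and call. Both exceptions were aldoaa, at -0.024 with equal totals and -0.028 with quantile normalization. Of 50 comparisons with a library left out, 3 changed sign, and changes of call are not counted here. Those 3 sign changes were of aldoaa (-0.067 to 0.19) and gapdhs (-0.083 to 0.053).

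The ratio of muscle to general forms moved to a log2 difference of 0.082 when gapdh counted as a muscle form, and was 0.051 with means of log2 values. The number of other pathway genes called, 6 of 105 tested, was 10 with equal totals and ranged from 0 (without Mutant replicate 2 or without WT column 2) to 15 (without WT column 3) with a library left out. It was 1 without Mutant replicate 1 and 14 without Mutant replicate 3. The cause was not tested.

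No paired analysis was possible because numbers on the WT columns cannot be tied to sample titles. Tests by edgeR and DESeq2 were not run.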

Other observations

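Genes known as targets of the hypoxia response, which also controls glycolytic genes in mammals, were examined as a further list. Of 19 tested genes 0 rose and 1 fell (3.32% and 2.68% over all genes). Their median log2 fold change was -0.073, with 8 positive and 11 negative values. The fall was that of ddit4, an inhibitor of mTOR signalling that is induced by several stresses, with 809, 708 and 779 scaled counts in the libraries labelled Mutant against 1788 and 1305 in those labelled WT (log2 fold change -0.998, SE 0.14, limma adjusted p = 0.0121). Among the fits that left out a library labelled Mutant, that call was lost without replicate 2. The most highly counted gene of the list, hif1al, had 9536, 8999 and 8665 scaled counts in the libraries labelled Mutant against 8527 and 7488 in those labelled WT (log2 fold change 0.18, adjusted p = 0.272). A link between the hypoxia list and the 10 glycolysis genes was not tested.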
